A study of Mus musculus with 4 samples.

Results

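The mitochondrial genome is a small circular DNA that carries genes for a core set of respiratory chain proteins, together with the ribosomal and transfer RNAs needed to translate them inside the organelle. Both of its strands are copied into long RNAs, which are then cut, largely at the transfer RNAs that lie between the other genes, into mature messenger, ribosomal and transfer RNAs. All other proteins of the organelle, including the polymerase, the RNA processing enzymes and most respiratory chain subunits, are encoded in the nucleus. Neutrophils are known for relying mainly on glycolysis and for holding few mitochondria.

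The genes described here are those whose symbol begins with mt-, which is how mouse annotation marks a gene of the mitochondrial genome. They were 37 of the 28585 genes in the files, made up of 13 messenger RNA (mRNA) genes, 2 ribosomal RNA (rRNA) genes and 22 transfer RNA (tRNA) genes. Expression was measured by bulk RNA sequencing in 4 libraries of PMN-MDSCs (CD11b+ Ly6C lo/- Ly6G+), the neutrophil-like class of myeloid-derived suppressor cells, sorted from the spleens of mouse pups on postnatal day 7. The 2 Dhps cko libraries came from Dhps fl/fl pups that carried Lysm cre, a recombinase expressed from the lysozyme locus in myeloid cells. The 2 Dhps flox libraries came from Dhps fl/fl littermates without the recombinase, so that the floxed allele was shared by both groups. Dhps encodes deoxyhypusine synthase, the enzyme that starts the hypusination of the translation factor eIF5A. The comparison asked whether the RNA of the mitochondrial genome differed between these genotypes. The labels do not say whether replicates came from separate pups, so p-values measure only the spread between these libraries.

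Values are FPKM (fragments scaled to the length of the transcript in kilobases and to the size of the library), listed below for replicate 1 and then replicate 2 of a genotype. The depth of sequencing, taken from how far apart the lowest FPKM values stand, came to about 32000000 and 31100000 fragments for Dhps cko and 30700000 and 29900000 fragments for Dhps flox. These are rough estimates, because the method did not recover whole reads. Dhps itself was listed at 2.38 and 2.59 FPKM in Dhps cko and at 3.57 and 3.11 FPKM in Dhps flox, so that the Dhps cko mean was 74.4% of the Dhps flox mean (limma log2 fold change -0.41, SE 0.13, adjusted p = 0.629). These values do not show a complete loss of the transcript in the sorted cells. The 12 neutrophil markers examined, which include Ly6g, S100a8 and S100a9, summed to between 74190 and 81280 FPKM per library, against 608 to 916 FPKM for 8 erythroid markers, 321 to 394 FPKM for 10 monocyte and macrophage markers, 41.9 to 68.4 FPKM for 8 B cell markers and 8.01 to 18.5 FPKM for 8 T cell markers. Within the mitochondrial mRNAs 1 library stood apart, because Dhps flox replicate 2 had the lowest value for each of the 13 genes.

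The genes are packed on the circle with few or no bases between them, and some of them overlap. Of the 37 genes, 28 are transcribed with the heavy strand as template and stand on the plus strand of the annotation, namely 12 mRNA genes, both rRNA genes and 14 tRNA genes. The light strand is the template of 9 genes on the minus strand of the annotation, which are mt-Nd6 and 8 tRNA genes. They are called heavy-strand and light-strand genes here. Where genes overlap, a fragment from the overlap belongs to both, and values of such neighbours are uncertain to that extent. The longest overlap is that of mt-Atp8 and mt-Atp6, which share 43 bases. It is shown in GRCm38 (GENCODE M21) at chrM:7766-7975, plus strand, from the first base of mt-Atp8, with the bases that belong to both genes in capitals, because the ratio of this gene pair is described below.
mt-Atp8 to mt-Atp6: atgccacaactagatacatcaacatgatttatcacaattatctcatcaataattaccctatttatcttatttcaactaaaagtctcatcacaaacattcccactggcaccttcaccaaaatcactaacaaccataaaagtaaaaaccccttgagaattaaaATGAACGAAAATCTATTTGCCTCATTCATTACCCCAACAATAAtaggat

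The next junctions shown are further overlaps of mRNA genes on the same and on opposite strands, and that of mt-Co1 with the tRNA gene that has the highest value. The genes mt-Atp6 and mt-Co3 also share 1 base on the same strand (chrM:8607), which is not shown. The genes mt-Nd4l and mt-Nd4 share 7 bases on the same strand (chrM:10143-10197). The genes mt-Nd5 and mt-Nd6 lie on opposite strands and share 14 bases (chrM:13528-13589). The tRNA gene mt-Ts1 is a light-strand gene directly behind mt-Co1 and shares 3 bases with its end (chrM:6840-6938). All are written as the plus strand. Capitals mark the bases in both genes in the first and second and, in the third, the stretch whose reverse complement is mt-Ts1.
mt-Nd4l to mt-Nd4: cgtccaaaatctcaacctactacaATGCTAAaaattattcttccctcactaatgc
mt-Nd5 to mt-Nd6: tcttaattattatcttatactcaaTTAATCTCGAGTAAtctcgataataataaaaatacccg
mt-Co1 to mt-Ts1: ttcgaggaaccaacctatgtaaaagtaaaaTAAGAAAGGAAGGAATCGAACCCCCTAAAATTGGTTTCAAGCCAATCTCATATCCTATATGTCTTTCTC

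The mRNA genes also differ in how they end. In the annotation 10 of the 13 consist of whole codons and close with a stop codon, whereas mt-Co3, mt-Nd4 and mt-Cytb end in a lone T that becomes a stop codon only once a poly(A) tail is added to the RNA.

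The mitochondrial mRNAs did not differ between the genotypes beyond the spread of the libraries. With limma on log2(FPKM + 0.1), 0 of 13 mRNA genes passed an adjusted p of 0.05 (smallest adjusted p = 0.75), and 0 of 13 had an unadjusted p under 0.05. Across all 17948 genes tested, 1 gene passed the adjusted threshold, or 0.00557%, and 1257 genes, or 7.0%, had an unadjusted p under 0.05. Over the 13 genes the median log2 difference, Dhps cko minus Dhps flox, was 0.09, against 0.01 over all genes tested, with 12 genes above 0 and mt-Nd5 below. The median was 0.06 on the TPM scale and with nuclear sums made equal, and 0.02 after quantile normalization, where 1 of 13 had an unadjusted p under 0.05 (6.96% of all genes). The 95% intervals of the single genes reached down to -0.36 and up to 0.52 on the log2 scale, and differed from gene to gene.

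**Figure D1:**
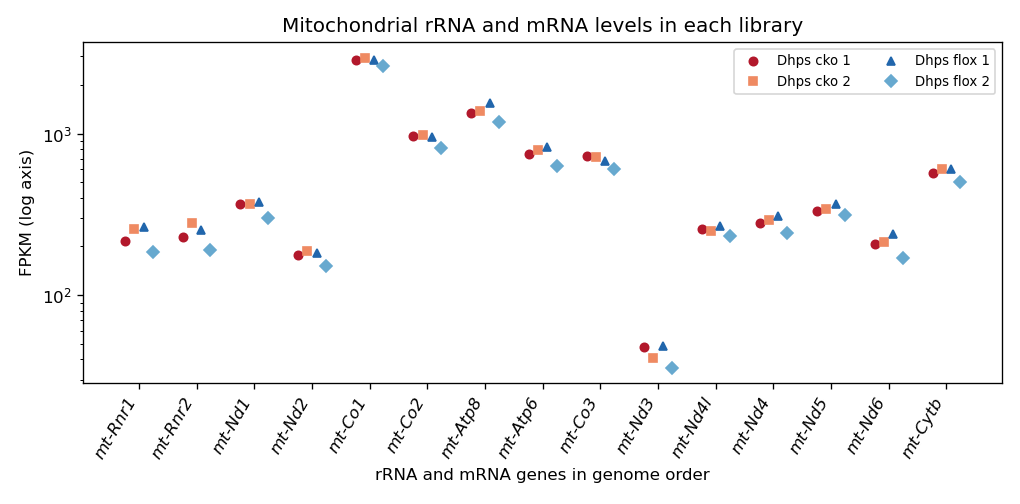
FPKM (log axis) of the 2 rRNA and 13 mRNA genes in genome order, with 1 point for each of the 4 libraries. The libraries of both genotypes lie close together for each gene, while the genes range from about 43.1 (mt-Nd3) to about 2820 FPKM (mt-Co1) in the mean of the libraries.

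The sign of that median depended on which Dhps flox library was used. Dhps flox replicate 2 had the lowest value of the 4 libraries for 13 of 13 mRNA genes, which was the case for 25.6% of the 10629 genes whose mean reached 1 FPKM. Dhps flox replicate 1 had the highest value for 9 of the 13 genes, and for 9 genes both Dhps cko libraries lay between the Dhps flox libraries. On the log2 scale, Dhps flox replicate 2 differed from Dhps flox replicate 1 by a median of -0.28 over the 13 genes (range -0.50 to -0.14), whereas Dhps cko replicate 2 differed from Dhps cko replicate 1 by a median of 0.04 (range -0.22 to 0.08). Over the 10629 genes the median difference between the Dhps flox libraries was 0.01, and 10.0% of these genes lay at or below -0.28. Without Dhps flox replicate 2 the median log2 fold change of the 13 mRNAs was -0.08, and without Dhps flox replicate 1 it was 0.25, with 0 genes past the adjusted threshold in each case. The number of the 13 with an unadjusted p under 0.05 was 1 without Dhps flox replicate 2 (8.94% of all genes) and 9 without Dhps flox replicate 1 (7.18% of all genes).

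**Figure D2:**
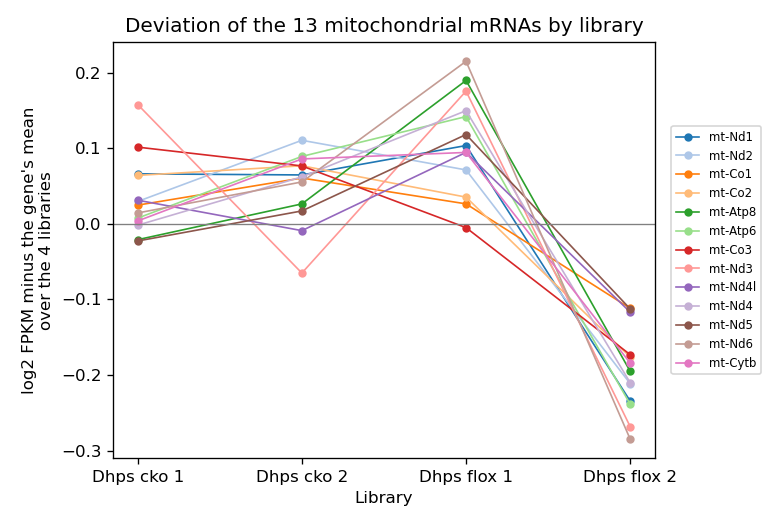
Deviation of each of the 13 mitochondrial mRNAs (1 line per gene) from its own mean over the 4 libraries, on the log2 FPKM scale. All 13 genes have their lowest point in Dhps flox 2, and 9 have their highest point in Dhps flox 1.

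The complex IV subunits held the largest summed FPKM of the mRNA groups, though mt-Atp8 of complex V was above mt-Co2 and mt-Co3 in all 4 libraries as listed, before nuclear copies are counted. Complex IV, or cytochrome c oxidase, passes electrons to oxygen, and mt-Co1, mt-Co2 and mt-Co3 encode its catalytic core. mt-Co1 (chrM:5328-6872) was listed at 2868 and 2940 FPKM in Dhps cko and at 2871 and 2609 FPKM in Dhps flox. mt-Co2 was listed at 968 and 977 FPKM in Dhps cko and at 949 and 820 FPKM in Dhps flox. mt-Co3 was listed at 731 and 719 FPKM in Dhps cko and at 679 and 605 FPKM in Dhps flox. For mt-Co1 a Dhps cko and a Dhps flox library were nearly equal at 2868 and 2871 FPKM, while mt-Co2 and mt-Co3 were the only mRNA genes of the 13 whose groups did not overlap, both being higher in Dhps cko. Among all genes tested, groups did not overlap in 36.0%, with 20.0% higher and 16.0% lower in Dhps cko, so 2 of 13 is not above the background. mt-Co3 had a log2 fold change of 0.18 (limma, SE 0.08, 95% interval -0.02 to 0.38, adjusted p = 0.75).

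Complex I, or NADH dehydrogenase, takes electrons from NADH, and the mitochondrial genome encodes 7 of its subunits, all in its membrane arm. mt-Nd1 was listed at 369 and 369 FPKM in Dhps cko and at 379 and 300 FPKM in Dhps flox. mt-Nd2 was listed at 178 and 189 FPKM in Dhps cko and at 183 and 151 FPKM in Dhps flox. mt-Nd3, the lowest of the 13 mRNAs, was listed at 47.7 and 40.9 FPKM in Dhps cko and at 48.3 and 35.5 FPKM in Dhps flox. In each of these genes Dhps flox replicate 2 was lowest and the other Dhps flox library lay above at least 1 Dhps cko library. mt-Nd4l was listed at 257 and 250 FPKM in Dhps cko and at 269 and 232 FPKM in Dhps flox. mt-Nd4 was listed at 280 and 292 FPKM in Dhps cko and at 310 and 242 FPKM in Dhps flox. mt-Nd5 was listed at 333 and 343 FPKM in Dhps cko and at 368 and 313 FPKM in Dhps flox. For all of these last genes both Dhps cko libraries lay between the Dhps flox libraries. mt-Nd5 was the only mRNA gene with a mean below that of Dhps flox on the log2 scale, with a log2 fold change of -0.01 (limma, SE 0.09, 95% interval -0.24 to 0.23).

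mt-Nd6 (chrM:13552-14070, minus strand), a complex I subunit and the only light-strand mRNA, was listed at 208 and 214 FPKM in Dhps cko and at 239 and 169 FPKM in Dhps flox. The Dhps flox libraries enclosed the Dhps cko libraries, and the log2 fold change was 0.07 (limma, SE 0.17, 95% interval -0.36 to 0.50). This was the widest interval among the 13 mRNAs. Because light-strand RNA is made from its own promoter, mt-Nd6 was also set against the mean of the 12 heavy-strand mRNAs of the same library, a ratio that does not depend on scaling between libraries. The ratio was 0.287 and 0.288 in Dhps cko and 0.317 and 0.266 in Dhps flox, so that the groups overlapped (two-sided exact permutation test, p = 1.0, smallest possible p = 0.33). Against the 5 heavy-strand genes that share little sequence with annotated nuclear transcripts (mt-Nd1, mt-Nd2, mt-Nd5, mt-Cytb and mt-Atp8, a choice made after the data were seen), the ratio was 0.373 and 0.371 in Dhps cko and 0.387 and 0.345 in Dhps flox. Of these genes, mt-Atp8 had the highest level. It would fall in a stretch of a nuclear block that was not searched, as described below, so this base may not be free of copies. The strand setting of the read counting is not given in the sources used here, and without strand the reads of mt-Nd6 and of RNA from the opposite strand cannot be told apart.

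mt-Cytb, which encodes cytochrome b, the subunit of complex III that binds ubiquinol, was listed at 570 and 603 FPKM in Dhps cko and at 607 and 500 FPKM in Dhps flox. Its log2 fold change was 0.09 (limma, 95% interval -0.18 to 0.36). Complex V, the ATP synthase, has its proton channel subunit mt-Atp6 and the small subunit mt-Atp8 from the mitochondrial genome. mt-Atp6 was listed at 751 and 794 FPKM in Dhps cko and at 824 and 633 FPKM in Dhps flox. mt-Atp8 was listed at 1338 and 1383 FPKM in Dhps cko and at 1549 and 1186 FPKM in Dhps flox. For these 3 genes both Dhps cko libraries lay between the Dhps flox libraries. mt-Atp8 had the lowest log2 fold change above 0 of the 13 genes, at 0.01 (limma, SE 0.14).

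**Figure D3:**
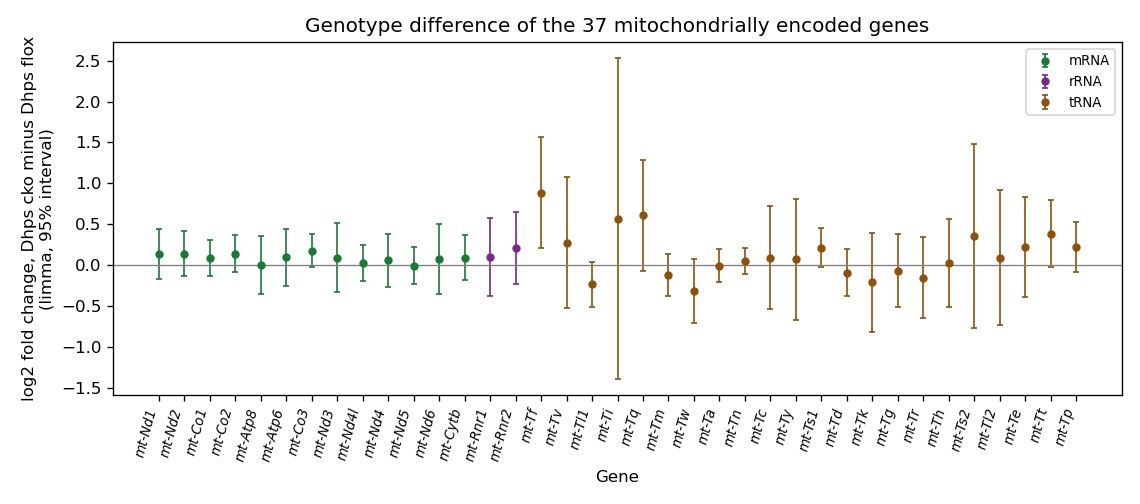
Log2 fold change (Dhps cko minus Dhps flox) of the 37 mitochondrially encoded genes with 95% intervals from limma on log2(FPKM + 0.1), in colours for mRNA, rRNA and tRNA. The mRNA points lie between -0.01 and 0.18 with intervals that include 0, while the tRNA points range from -0.32 to 0.89 with mostly wider intervals, of which that of mt-Tf lies above 0 before adjustment.

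The order of the levels was the same in nearly all respects between libraries. By mean FPKM over the 4 libraries, which is a level per length, mt-Co1 (2820) was followed by mt-Atp8 (1360), mt-Co2 (928), mt-Atp6 (750), mt-Co3 (683), mt-Cytb (570), mt-Nd1 (354), mt-Nd5 (339), mt-Nd4 (281), mt-Nd4l (252), mt-Nd6 (207), mt-Nd2 (175) and mt-Nd3 (43.1). The rRNA genes mt-Rnr2 (238) and mt-Rnr1 (231) fell between mt-Nd4l and mt-Nd6. The ranges over libraries did not overlap between mt-Co1 and mt-Atp8, between mt-Atp8 and mt-Co2, between mt-Cytb and mt-Nd1, between mt-Nd5 and mt-Nd4, or between mt-Nd2 and mt-Nd3. All other neighbours in the order overlapped in range, although mt-Co2 exceeded mt-Atp6, and mt-Atp6 exceeded mt-Co3, within each of the 4 libraries. mt-Nd1 exceeded mt-Nd5, mt-Nd4l exceeded mt-Rnr2, and mt-Rnr2 exceeded mt-Rnr1 in 3 of 4 libraries.

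Summed over the 13 genes, mitochondrial mRNA held 2.83% and 2.85% of the FPKM of the Dhps cko libraries and 2.94% and 2.56% of the FPKM of the Dhps flox libraries. As a share of mapped fragments, obtained from FPKM and gene length, this was 0.884% and 0.906% in Dhps cko and 0.906% and 0.783% in Dhps flox. The Dhps cko libraries lay between the Dhps flox libraries for the share of FPKM (two-sided exact permutation test, p = 1.0). In bulk samples, fewer mitochondria per cell, less RNA per mitochondrion and fewer cells of a type cannot be told apart.

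Within the mRNA pool, complex IV subunits held 51.3% and 50.9% of the FPKM in Dhps cko and 48.5% and 51.7% in Dhps flox, and complex V subunits held 23.5% and 23.9% in Dhps cko and 25.6% and 23.3% in Dhps flox. Complex I subunits held 18.8% and 18.6% in Dhps cko and 19.4% and 18.5% in Dhps flox. None of these shares separated the genotypes. Of the 13 single-gene shares, 3 were higher in both Dhps cko libraries (mt-Nd2, mt-Co2 and mt-Co3) and 3 were lower (mt-Atp8, mt-Nd4l and mt-Nd5), where 36.0% of all genes tested had groups that did not overlap on the FPKM scale. The exact permutation p was 0.33 for each of these shares, the smallest that 2 against 2 libraries allow, and 0.722 after adjustment over the 13 shares.

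The mt-Nd5 share was 3.75% and 3.76% in Dhps cko and 3.96% and 4.02% in Dhps flox. The mt-Co2 share was 10.9% and 10.7% in Dhps cko and 10.2% and 10.5% in Dhps flox. The mt-Co3 share was 8.22% and 7.89% in Dhps cko and 7.32% and 7.76% in Dhps flox. For mt-Co2 and mt-Co3 the gap between the nearest libraries of the genotypes was smaller than the difference between the Dhps flox libraries. For mt-Nd5 that gap was larger than the difference between the replicates of either genotype. The ratio of mt-Atp8 to mt-Atp6, which lie on 1 RNA and overlap as shown above, was 1.78 and 1.74 in Dhps cko and 1.88 and 1.87 in Dhps flox, also without overlap of the groups (two-sided exact permutation test, p = 0.33, the smallest possible). mt-Atp6 has a nuclear copy of identical sequence, described below, and with the value of that copy added to mt-Atp6 the ratio was 0.853 and 0.835 in Dhps cko and 0.899 and 0.894 in Dhps flox. This corrects mt-Atp6 alone, since the stretch of the same nuclear block that lies beside this copy, where mt-Atp8 would fall, gave no matching annotated transcript and was not searched itself, so the order of mt-Atp6 and mt-Atp8 is uncertain. For the overlapping pair mt-Nd4l and mt-Nd4, the ratio was 0.921 and 0.857 in Dhps cko and 0.866 and 0.960 in Dhps flox. The groups overlapped for this ratio (exact permutation test, p = 0.67).

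The rRNA genes encode the RNAs of the small (mt-Rnr1) and large (mt-Rnr2) subunit of the mitochondrial ribosome. mt-Rnr1 (chrM:70-1024) was listed at 217 and 257 FPKM in Dhps cko and at 263 and 185 FPKM in Dhps flox. mt-Rnr2 (chrM:1094-2675) was listed at 228 and 281 FPKM in Dhps cko and at 253 and 189 FPKM in Dhps flox. The groups overlapped for both genes, and Dhps flox replicate 2 was again lowest. The log2 fold change was 0.10 for mt-Rnr1 (limma, SE 0.19, 95% interval -0.38 to 0.58) and 0.21 for mt-Rnr2 (limma, SE 0.17, 95% interval -0.23 to 0.65), and 0 of 2 passed the adjusted threshold (smallest adjusted p = 0.83) or an unadjusted p of 0.05. Without Dhps flox replicate 2 their median log2 fold change was -0.08, and without Dhps flox replicate 1 it was 0.39.

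Each rRNA gene lay within the range of the mRNA genes, above mt-Nd6, mt-Nd2 and mt-Nd3 in mean FPKM. The summed FPKM of the 2 rRNA genes was 0.04995 and 0.05904 of the sum over the 13 mRNA genes in Dhps cko and 0.0556 and 0.0480 in Dhps flox (two-sided exact permutation test, p = 0.67). The sources used here do not state for these libraries whether polyadenylated RNA was selected or ribosomal RNA removed, either of which sets this ratio. The ratio of mt-Rnr1 to mt-Rnr2 was 0.953 and 0.915 in Dhps cko and 1.04 and 0.976 in Dhps flox, without overlap of the groups (exact permutation test, p = 0.33, the smallest possible).

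Several of the mRNA genes have copies in the nuclear genome that the annotation lists as genes of their own, and the files give some of these copies values close to those of the mitochondrial genes. A block on chromosome 1 (GRCm38, chr1:24611535-24616197) holds 7 such copies, found by comparing the mitochondrial genes with all other annotated transcripts in stretches of 50 bases. Of the 7 copies, 5 had 0 differing bases over their whole length, which was 783 bases for Gm28437 (mt-Co3), 681 bases for Gm28661 (mt-Co2), 678 bases for Gm10925 (mt-Atp6), 294 bases for Gm10222 (mt-Nd4l) and 876 bases for Gm28439 (the first part of mt-Nd4). Gm28438 differed from mt-Nd3 at 1 of 345 bases, and Gm29216, which covers the end of mt-Co1, differed at 6 of 492 bases. The start of mt-Nd3 is printed beside that of its copy, because the base in capitals is the only one by which a read from the copied stretch could be assigned. Counted from 1 at the 5′ end of mt-Nd3, the difference is T3C.
mt-Nd3: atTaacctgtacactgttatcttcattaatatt
Gm28438: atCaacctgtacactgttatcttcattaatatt

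Gm28437 was listed at 733 and 719 FPKM in Dhps cko and at 680 and 605 FPKM in Dhps flox, which was 100% of the mt-Co3 value in each library to 3 digits. Gm28661 was at 99.2% to 99.6% of mt-Co2, Gm10222 at 100% to 101% of mt-Nd4l, Gm10925 at 109% to 110% of mt-Atp6 and Gm28438 at 88.9% to 93.2% of mt-Nd3. The partial copies were lower, with Gm28439 at 68.9% to 73.8% of mt-Nd4 and Gm29216 at 17.6% to 19.3% of mt-Co1. Less complete copies on chromosome 2 were listed far lower, with Gm13340, which shares 27.5% of the stretches of mt-Co1, at 2.41 to 3.70 FPKM and Gm13341, which shares 35.3% of those of mt-Co2, at 3.53 to 4.51 FPKM. Reads from identical stretches cannot be told apart, so the FPKM of mt-Co1, mt-Co2, mt-Co3, mt-Atp6, mt-Nd3, mt-Nd4l and mt-Nd4, and their rank against genes without a copy, are uncertain. With the copies added, mt-Co2, at 1629 to 1941 FPKM, lay above mt-Atp8 as listed in all 4 libraries and mt-Co3, at 1209 to 1463 FPKM, in 3 of 4, while mt-Nd4, at 355 to 456 FPKM, lay above mt-Nd5 in all 4. With the values of the copies added to the mitochondrial genes, an alternative chosen after the data were seen, mt-Co3 was at 1463 and 1437 FPKM in Dhps cko and at 1358 and 1209 FPKM in Dhps flox, its log2 fold change was 0.18, and 0 of 13 mRNA genes passed the adjusted threshold. With the copies, the mitochondrial sum was 3.96% and 3.98% of the FPKM in Dhps cko and 4.08% and 3.55% in Dhps flox. Only annotated transcripts were searched, so further nuclear copies outside them were not examined. This includes the stretches between the copies of this block, where mt-Atp8, mt-Ts1, mt-Td, mt-Tk, mt-Tg and mt-Tr would fall. The values of these genes are uncertain to that extent as well.

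**Figure D4:**
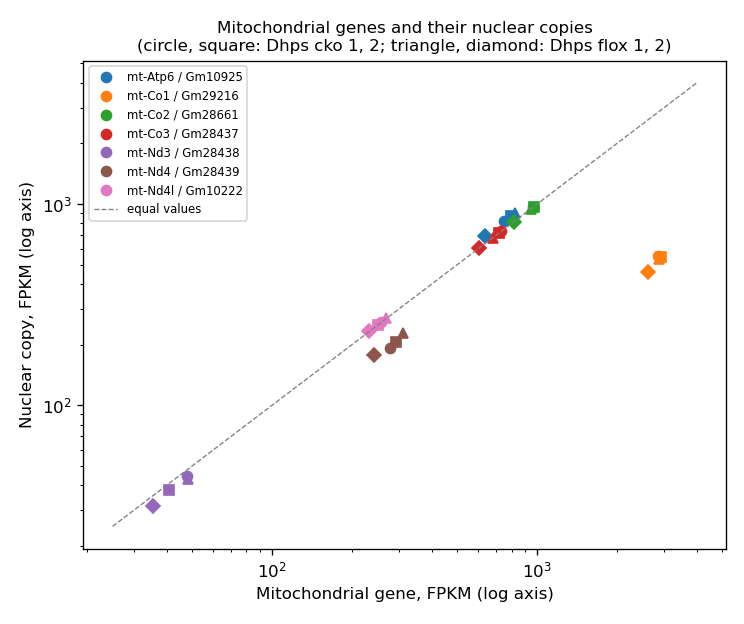
FPKM of 7 nuclear copies on chromosome 1 (vertical, log axis) against the mitochondrial gene each one copies (horizontal, log axis), with 1 point per library, marker shapes for the libraries and a dashed line of equal values. The points of mt-Co2, mt-Co3, mt-Atp6, mt-Nd4l and mt-Nd3 lie on or near the line, and those of mt-Nd4 and mt-Co1 lie below it.

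The tRNA genes gave low values that differed widely from gene to gene. Transfer RNAs are strongly folded, chemically modified and short, and standard RNA sequencing libraries recover them poorly, so these values describe fragments over the tRNA genes, including uncut precursors, and not the pool of mature tRNA. All 22 passed the filter of a mean of 0.1 FPKM and none was at 0 in every library. The sequences of the genes with the highest value on each strand, and of the gene with the largest fold change, are printed as RNA-sense DNA from GENCODE M21 with the anticodon in capitals. They are mt-Ts1 (serine, chrM:6870-6938, minus strand), mt-Tl1 (leucine, chrM:2676-2750, plus strand) and mt-Tf (phenylalanine, chrM:1-68, plus strand).
mt-Ts1: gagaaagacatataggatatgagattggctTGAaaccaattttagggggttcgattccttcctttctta
mt-Tl1: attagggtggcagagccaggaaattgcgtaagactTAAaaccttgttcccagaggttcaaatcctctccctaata
mt-Tf: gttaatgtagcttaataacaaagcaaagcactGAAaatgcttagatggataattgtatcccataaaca

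mt-Ts1 had the highest level, at 183 and 167 FPKM in Dhps cko and 163 and 140 FPKM in Dhps flox. mt-Tl1, which lies between mt-Rnr2 and mt-Nd1, was listed at 53.7 and 56.9 FPKM in Dhps cko and at 71.9 and 58.9 FPKM in Dhps flox. mt-Tp (proline) was listed at 52.2 and 45.3 FPKM in Dhps cko and at 46.0 and 38.1 FPKM in Dhps flox. The groups did not overlap for mt-Ts1, higher in Dhps cko, and mt-Tl1, lower in Dhps cko, and they overlapped for mt-Tp. The next in level were mt-Te (glutamate) at 32.5 and 35.2 FPKM in Dhps cko and 37.3 and 22.6 FPKM in Dhps flox, and mt-Tn (asparagine) at 23.9 and 24.7 FPKM in Dhps cko and 22.89 and 24.01 FPKM in Dhps flox.

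The level of a tRNA gene went with its strand. Of the 8 tRNA genes with the highest mean, 6 were light-strand genes, and of the 8 with the lowest mean, 7 were heavy-strand genes. The median over the 8 light-strand tRNA genes was 22.9 and 24.4 FPKM in Dhps cko and 23.4 and 22.3 FPKM in Dhps flox, whereas the median over the 14 heavy-strand tRNA genes was 3.59 and 3.76 FPKM in Dhps cko and 3.56 and 3.59 FPKM in Dhps flox. Among the 8 lowest the light-strand gene was mt-Tq (glutamine), with a mean of 2.88 FPKM, and among the 8 highest the heavy-strand genes were mt-Tl1, with a mean of 60.4 FPKM, and mt-Tr (arginine), with a mean of 10.8 FPKM. The last lay close to mt-Ty and mt-Tc of the light strand, at 10.8 and 10.6 FPKM. This is a description of 22 genes that share the same libraries, and neither it nor the opposite-strand RNA that covers each of these genes was tested. All light-strand tRNA genes lie opposite RNA of the heavy strand, and mt-Ts1 stood at 5.38% to 6.39% of the FPKM of mt-Co1, with which it overlaps. In the block on chromosome 1, mt-Ts1 would fall between annotated copies, in a stretch that was not searched. Its value and rank are uncertain to that extent.

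**Figure D5:**
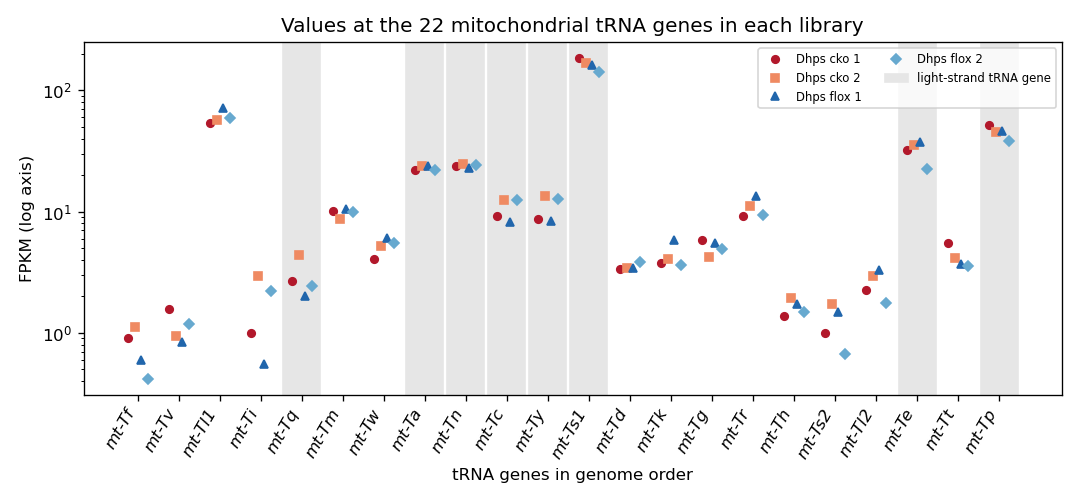
FPKM (log axis) at the 22 mitochondrial tRNA genes in genome order, with 1 point for each of the 4 libraries and grey bands behind the 8 light-strand genes. The light-strand genes sit mostly above the heavy-strand genes, with mt-Tl1 as a high heavy-strand gene and mt-Tq as a low light-strand gene.

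Between the genotypes, 0 of 22 tRNA genes passed the adjusted threshold (limma, smallest adjusted p = 0.62), and 1 of 22, mt-Tf, had an unadjusted p under 0.05, higher in Dhps cko, where the same held for 4.72% of all genes tested. In either direction the count was 3 of 22 without Dhps flox replicate 1 (7.18% of all genes) and 2 without Dhps flox replicate 2 (8.94% of all genes) or without Dhps cko replicate 2 (4.0% of all genes). The median log2 fold change was 0.08, with 14 genes above and 8 below 0. It was -0.04 without Dhps flox replicate 2 and also -0.04 without Dhps cko replicate 2. Groups did not overlap for 4 genes higher in Dhps cko (mt-Tf, mt-Tq, mt-Ts1 and mt-Tt) and 3 lower (mt-Tl1, mt-Tw and mt-Td), against 20.0% and 16.0% of all genes tested. The summed FPKM of the 22 genes was lowest in Dhps flox replicate 2, at 382.5 against 436.5 to 440.4 FPKM in the other libraries. By gene, Dhps flox replicate 2 was lowest for 8 of the 22, among them mt-Ts1, mt-Tp and mt-Te, Dhps flox replicate 1 for 6, Dhps cko replicate 1 for 6 and Dhps cko replicate 2 for 2.

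The 5 tRNA genes with the largest fold changes all had low values. mt-Tf was listed at 0.91 and 1.13 FPKM in Dhps cko and at 0.60 and 0.42 FPKM in Dhps flox, with a log2 fold change of 0.89 (limma, unadjusted p = 0.020, adjusted p = 0.62). With the estimated depth and gene length, this came to about 4.37 fragments over both Dhps cko libraries and 2.11 over both Dhps flox libraries. That is too few to show a difference, and the estimate is rough because it did not recover whole reads. mt-Tq was listed at 2.67 and 4.41 FPKM in Dhps cko and at 2.02 and 2.44 FPKM in Dhps flox (log2 fold change 0.61). mt-Ti (isoleucine) was listed at 1.00 and 2.93 FPKM in Dhps cko and at 0.55 and 2.23 FPKM in Dhps flox (log2 fold change 0.57). In mt-Ti the replicates of a genotype differed more than the genotypes. mt-Tt (threonine) was listed at 5.48 and 4.13 FPKM in Dhps cko and at 3.69 and 3.56 FPKM in Dhps flox, and mt-Ts2 (serine) at 0.99 and 1.73 FPKM in Dhps cko and at 1.48 and 0.67 FPKM in Dhps flox. By contrast, mt-Ts1 rested on about 764 fragments over the Dhps cko and about 635 over the Dhps flox libraries by the same rough estimate. Its log2 fold change was 0.21 (limma, SE 0.09, 95% interval -0.03 to 0.45, adjusted p = 0.75).

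The nuclear genes that copy, process and translate the mitochondrial genome also showed no genotype difference past the threshold. Of 76 such genes in lists for transcription and mtDNA maintenance, for RNA processing, stability and modification, and for translation, 0 passed the adjusted threshold (limma, smallest adjusted p = 0.63), and at an unadjusted p under 0.05 there were 0 higher and 1 lower, against 4.72% and 2.28% of all genes. Their median log2 fold change was 0.01. Polrmt, the mitochondrial RNA polymerase, was listed at 1.01 and 1.23 FPKM in Dhps cko and at 0.80 and 1.03 FPKM in Dhps flox. Tfam, which packs mitochondrial DNA and opens its promoters, was listed at 2.82 and 2.19 FPKM in Dhps cko and at 2.56 and 2.11 FPKM in Dhps flox. The groups overlapped for both genes. Twnk, the helicase of mitochondrial DNA replication, was listed at 2.24 and 2.21 FPKM in Dhps cko and at 2.30 and 2.00 FPKM in Dhps flox, again with overlap.

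Lrpprc and Slirp encode partners that stabilise mitochondrial mRNA. Lrpprc was listed at 1.48 and 1.37 FPKM in Dhps cko and at 1.19 and 1.31 FPKM in Dhps flox, without overlap, and Slirp at 0.59 and 0.48 FPKM in Dhps cko and at 0.58 and 0.50 FPKM in Dhps flox, with overlap. The gene with the lowest p of the lists was Grsf1, which encodes an RNA-binding protein of mitochondrial RNA granules, at 13.01 and 13.13 FPKM in Dhps cko and 15.24 and 14.95 FPKM in Dhps flox (log2 fold change -0.21, SE 0.06, limma unadjusted p = 0.023, adjusted p = 0.63).

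The nuclear-encoded subunits of the same respiratory complexes were also without a gene past the threshold. Of 73 nuclear subunits of complexes I, III, IV and V, 0 passed the adjusted threshold (limma, smallest adjusted p = 0.48). At an unadjusted p under 0.05, 16 were higher and 1 lower in Dhps cko (background 4.72% and 2.28%), groups did not overlap for 36 higher and 1 lower (background 20.0% and 16.0%), and the median log2 fold change was 0.13. The unadjusted count of 17 of 73 was 2 without Dhps cko replicate 1, where 4.44% of all genes had an unadjusted p under 0.05, 4 without Dhps flox replicate 2 (8.94% of all genes), 8 without Dhps cko replicate 2 (4.0% of all genes), 18 without Dhps flox replicate 1 (7.18% of all genes) and 2 without the variance trend (7.22% of all genes). It was 10 on the TPM scale (6.21% of all genes) and with nuclear sums made equal (6.35% of all genes), 8 without moderation (6.58% of all genes), and the median log2 fold change ranged from 0.08 without Dhps cko replicate 1 to 0.175 without Dhps flox replicate 1. The difference between the 73 nuclear and the 13 mitochondrial genes was not tested. Cox5a, a structural subunit of complex IV, was listed at 11.9 and 11.6 FPKM in Dhps cko and at 9.43 and 9.25 FPKM in Dhps flox (log2 fold change 0.33, adjusted p = 0.488 with limma), and Ndufa3, an accessory subunit of complex I, at 12.2 and 13.2 FPKM in Dhps cko and at 9.30 and 9.59 FPKM in Dhps flox. In complex III, Uqcrq was at 8.75 and 8.02 FPKM in Dhps cko and at 7.34 and 6.29 FPKM in Dhps flox, whereas Uqcrb was lower in both Dhps cko libraries, with a mean of 15.9 FPKM against 18.4 FPKM.

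Several marker lists had higher values in Dhps cko than in Dhps flox. The 12 neutrophil markers summed to 78880 and 81280 FPKM in Dhps cko and to 78640 and 74190 FPKM in Dhps flox, with 5 of 12 higher without overlap and 0 lower, against 20.0% and 16.0% of all genes tested. Summed over 10 monocyte and macrophage markers, FPKM was 394 and 389 in Dhps cko and 321 and 321 in Dhps flox, and 9 of the 10 had groups that did not overlap, all higher in Dhps cko, against 20.0% of all genes tested. The 8 B cell markers summed to 66.1 and 68.4 FPKM in Dhps cko and to 41.9 and 51.5 FPKM in Dhps flox, with 7 of 8 higher without overlap, and the 8 T cell markers summed to 18.47 and 14.98 FPKM in Dhps cko and to 11.9 and 8.01 FPKM in Dhps flox, with 5 of 8. The 6 eosinophil markers summed to 98.7 and 94.0 FPKM in Dhps cko and to 80.2 and 81.6 FPKM in Dhps flox, with 5 of 6 higher without overlap. Red cell markers summed to 735 and 881 FPKM in Dhps cko and to 608 and 916 FPKM in Dhps flox, platelet markers to 3.17 and 2.2 FPKM in Dhps cko and to 1.66 and 4.37 FPKM in Dhps flox, and 5 primary granule genes of early neutrophil stages to 81.3 and 54.5 FPKM in Dhps cko and to 46.3 and 56.5 FPKM in Dhps flox, all with overlap. No marker of these lists was at 0 in all libraries. Among sex-linked genes, Xist was at 27.5 and 20.3 FPKM in Dhps cko and at 16.3 and 17.2 FPKM in Dhps flox, and 4 Y-linked genes summed to 7.07 and 8.07 FPKM in Dhps cko and to 17.6 and 15.6 FPKM in Dhps flox, so that RNA of both kinds was present in every library. The part of cell makeup and sex in the mitochondrial values was not tested.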

How the data were processed

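The authors deposited 1 table per library with FPKM per gene. Per the study's methods and the submitters' processing notes, adapters were removed with Cutadapt, reads were aligned to mm10 with HISAT2, and StringTie and ballgown gave the FPKM. The annotation, the strand setting and the treatment of reads that map more than once are not given in the sources used here, and these set the values of overlapping and copied genes. Only FPKM was used. Low values lay within 0.15 of a whole read in 38.9% to 41.8% of cases, where chance gives 30%, so whole reads were not recovered and no count model was fitted.

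Genes were tested with limma 3.58.1 in R 4.3.3, with a mean-variance trend, on log2(FPKM + 0.1) for the 17948 genes whose mean reached 0.1 FPKM, with Benjamini-Hochberg adjustment over all of them (threshold 0.05). A fold change on this scale understates that of low genes. Library quantities were compared with two-sided exact permutation tests. On simulated data for this comparison with 17948 genes, 62.7% of 200 genes with a set log2 change of 1.5 and 92.4% of those with 3 were recovered, with 13.6 and 17.8 false calls on average. Those changes are far larger than the mitochondrial mRNA differences, which ran from -0.01 to 0.18. The simulation therefore does not show how often differences of that size would be found. Alternatives changed the pseudocount, the filter, the scaling, the moderation, the replicate block and the libraries used. Positions and sequences came from GENCODE M21 (GRCm38), in which 28511 of the 28585 gene identifiers were found.

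The members and gene lists were chosen with earlier results of these data known. Named in the text were all mRNA and rRNA genes, the 5 tRNA genes with the highest mean and the 5 with the largest fold change, Dhps, fixed genes of the machinery lists, and genes of the machinery and respiratory lists with the lowest unadjusted p whose groups did not overlap. Genes of the block on chromosome 1 were named with their mitochondrial counterparts. Genes whose groups did not overlap, and those named as exceptions, were chosen after their values were seen.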

Additional observations from a re-analysis of the deposited data

How the results depend on the processing

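Of the mRNA, rRNA, tRNA, machinery and nuclear respiratory genes, 0 passed the adjusted threshold of limma under each alternative in which they were tested. The filter at 1 FPKM tested 21 of 22 tRNA genes (not mt-Tf), 61 of 76 machinery genes and 72 of 73 respiratory subunits, and the nuclear copies were added for the mRNA genes only. The number of genes called among all tested, 1 as reported, was 0 with a pseudocount of 0.01, with no filter on low values and with the replicate number as a block, 4 with a filter at 1 FPKM, 2 on the TPM scale, 2 after quantile normalization and 12 without moderation, and it was 0 to 0 when a library was left out. The labels do not say whether libraries with the same replicate number belong together. The correlation of deviations was -0.00615 over 17948 genes, which cannot decide this with 1 difference per genotype. The block changed no other call, while 5 of 22 tRNA genes and 9 of 73 respiratory subunits had an unadjusted p under 0.05 with it (6.03% of all genes). The median log2 fold change of the machinery lists, 0.01 as reported, was -0.00436 with the filter at 1 FPKM, -0.0181 as TPM, -0.0162 with nuclear sums made equal and -0.0052 after quantile normalization, and 0.000643 to 0.0313 when a library was left out. mt-Atp8 turned to -0.0267 as TPM, -0.00577 with size factors, -0.0251 with equal nuclear sums and -0.00524 after quantile normalization. mt-Nd4l turned to -0.00986, -0.00824 and -0.0693 as TPM, with equal nuclear sums and after quantile normalization, and mt-Nd6 to -0.0242 and mt-Cytb to -0.0076 after the last. Leaving out a library in turn gave ranges of -0.0834 to 0.247 for the mRNA median, -0.0779 to 0.386 for the rRNA median, -0.0443 to 0.13 for the tRNA median, -0.0484 to 0.15 for the mRNA share of FPKM (log2 ratio) and -0.141 to 0.114 for mt-Nd6 over heavy-strand mRNA (log2 ratio). The lowest mRNA and rRNA medians came without Dhps flox replicate 2 and the highest without Dhps flox replicate 1. For single genes the ranges were -0.0381 to 0.3 (mt-Nd1), -0.00127 to 0.281 (mt-Nd2), -0.187 to 0.198 (mt-Atp8), -0.0934 to 0.287 (mt-Atp6), -0.129 to 0.314 (mt-Nd3), -0.0834 to 0.128 (mt-Nd4l), -0.119 to 0.24 (mt-Nd4), -0.121 to 0.11 (mt-Nd5), -0.18 to 0.319 (mt-Nd6), -0.0496 to 0.229 (mt-Cytb), -0.157 to 0.355 (mt-Rnr1), 0.00153 to 0.418 (mt-Rnr2), 0.0162 to 0.154 (mt-Co1), 0.0351 to 0.247 (mt-Co2) and 0.094 to 0.262 (mt-Co3). With 1 library left in a genotype, that library is assumed to vary like the others. For these changes the cause was not tested. Depth limits the tRNA genes, 8 of which rest on fewer than 10 fragments in every library by an estimate from FPKM steps that did not recover whole reads.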
